A study of Mus musculus with 8 samples.

Results

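The PGC-1 coactivators, the PPAR and ERR nuclear receptors and their associates Perm1 and Tfam are regulators of mitochondrial biogenesis and oxidative metabolism. The 10 genes described here (Ppargc1a, Ppargc1b, Perm1, Ppara, Ppard, Pparg, Esrra, Esrrb, Esrrg and Tfam) were taken by symbol from the 48440 entries of the count table, and all 10 had an entry. RNA was measured in purified cardiomyocytes of C57BL6/J mouse pups at postnatal day 2. From each of 4 litters 1 male and 1 female heart was used, which gives 4 male and 4 female libraries, each from 1 pup. The labels give no genotype and no treatment for any group, so sex and litter are the labelled differences, and a litter is represented by 2 pups. Total counts ran from 14226342 to 24910243 per library, lowest in the female of litter 3. The 12 cardiomyocyte markers were all detected and summed to between 70504 and 93244 CPM (reads of a gene per equal number of reads of the library, after TMM scaling). Both libraries of litter 3 stood apart in markers of several cell types, whose values follow with the litter results.

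PPARα, PPARδ and PPARγ (genes Ppara, Ppard and Pparg) are receptors for fatty acids and their derivatives, bind DNA with an RXR partner and drive genes of fatty acid uptake and oxidation. The estrogen-related receptors ERRα, ERRβ and ERRγ (Esrra, Esrrb and Esrrg) have no known natural hormone, bind a longer form of the AGGTCA core site and drive genes of the citric acid cycle, the respiratory chain and energy transfer. PGC-1α and PGC-1β (Ppargc1a and Ppargc1b) do not bind DNA themselves and act as coactivators of both receptor families and of NRF1 and GABP, the factors that drive the gene of Tfam, a packaging and transcription factor of mitochondrial DNA. Perm1 is a muscle protein induced by PGC-1 and ERR. In the heart these genes are known for the turn from glucose to fatty acids as the main fuel after birth.

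Promoters were taken from RefSeq (GRCm38.p6), which held 15 promoters of 9 of the 10 genes. Ppargc1b had no entry. A window from 250 bases before to 50 bases after the start was searched on both strands for 7 motifs. These were TCAAGGTCA and the shorter AAGGTCA that lies within it (ERR), 2 copies of AGGTCA 1 base apart (PPAR with RXR), the NRF1 motif (GCGCA and GCGC 1 base apart), CCGGAAG (GABP and other ETS factors), TGACGTCA (cAMP response element) and CACGTG (E box). Perm1, Ppara and Tfam each held 1 of them, and the other 6 genes held none. The stretches of Perm1 and Ppargc1a before the annotated gene are shown because these genes differed in opposite directions in litter 3, with the matched letters in capitals. For Ppara and Tfam, which were lowest in litter 4 and in litter 3, only the 30 bases around the match are shown. All are written 5′ to 3′ on the strand of the gene.
Perm1, chr4:156215677-156215867, + strand: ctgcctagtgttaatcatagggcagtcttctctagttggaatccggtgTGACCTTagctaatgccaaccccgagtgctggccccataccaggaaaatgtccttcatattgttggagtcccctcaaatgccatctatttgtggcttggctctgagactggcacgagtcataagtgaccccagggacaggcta
Ppargc1a, chr5:51567727-51567975, - strand: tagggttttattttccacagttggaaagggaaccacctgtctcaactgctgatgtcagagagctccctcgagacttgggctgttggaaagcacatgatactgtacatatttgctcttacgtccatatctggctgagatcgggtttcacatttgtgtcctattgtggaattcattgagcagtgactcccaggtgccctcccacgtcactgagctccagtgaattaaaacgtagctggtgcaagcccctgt
Ppara, chr15:85735735-85735764, + strand: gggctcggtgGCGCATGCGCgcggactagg
Tfam, chr10:71238073-71238102, - strand: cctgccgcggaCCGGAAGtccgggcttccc

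The capitals in Perm1, TGACCTT, are the longer core site AAGGTCA read on the other strand, from 202 to 196 bases before the start. That motif was in 4.72% of all 32851 promoters of the table. The capitals in Ppara are a full NRF1 motif, 31 to 22 bases before the start, which 4.60% of promoters held. The capitals in Tfam are the ETS motif of the GABP family, 47 to 41 bases before the start, which 8.86% of promoters held. The other motifs were in 0.423% (TCAAGGTCA), 0.04% (the AGGTCA repeat), 1.79% (TGACGTCA) and 7.15% (CACGTG) of promoters. A match describes the letters of the window only, and no binding was measured.

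Of the 10 genes, 9 passed the filter on low counts and entered the tests, which covered 13771 genes. Pparg (chr6:115360951-115490399, + strand) did not pass. PPARγ, the receptor of fat storage, had 4, 2, 0 and 3 counts in the males of litters 1 to 4. The females of the same litters had 5, 17, 2 and 0 counts. The highest count, 17 in the female of litter 2, equalled 0.765 CPM, and a count of 0 allows up to 3 counts, or 0.130 CPM in the male of litter 3 and 0.126 CPM in the female of litter 4 (counting error only). In the female of litter 2 the 10 endothelial markers also summed to their highest value, 167 CPM against 18.6 to 92.8 CPM in the other libraries, and the part of other cells in the Pparg reads was not tested. Of 9 adipocyte markers, 8 had under 10 counts in each library, and of these Lep and Cfd were at 0 in every library. The ninth, Cidea, carried nearly all of the list's sum of 34.9 to 57.1 CPM and was called lower in litter 3.

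Levels of different genes were set side by side per length, as CPM per kilobase of the longest annotated transcript (RPKM below). On this scale Esrra stood first with 74.1 ± 4.69 RPKM (SD, n = 8 libraries), followed by Perm1 with 45.5 ± 7.84 RPKM and Ppargc1a with 31.2 ± 3.35 RPKM. Ppargc1b had 22.7 ± 4.58 RPKM, Tfam 10.9 ± 1.41 RPKM and Esrrg 10.4 ± 1.23 RPKM. The lower end was formed by Ppara at 6.40 ± 1.01 RPKM, Ppard at 4.38 ± 0.600 RPKM, Esrrb at 3.14 ± 0.613 RPKM and Pparg at 0.0894 ± 0.115 RPKM. On this scale the abundant genes were ERRα, Perm1 and both coactivators, and each PPAR receptor lay below them. The ranges over libraries of neighbours did not overlap between Esrra and Perm1, between Ppargc1b and Tfam, between Esrrg and Ppara and between Esrrb and Pparg. The other neighbours overlapped: Perm1 was above Ppargc1a in 6 of 8 libraries, with both exceptions in litter 3, Tfam was above Esrrg in 5 of 8, and Ppara was above Ppard in 7 of 8. Scaling to the union of all exons kept the rank of 6 of the 10 genes and scaling to the median transcript length kept 4, so ranks between genes depend on which transcripts are made. By the union of exons Perm1 came first at 45.5 RPKM and Esrra second at 42.1 RPKM, with Esrra above Perm1 in 2 of 8 libraries. By the median transcript length Esrra came first, followed by Ppargc1a and Tfam.

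**Figure D1:**
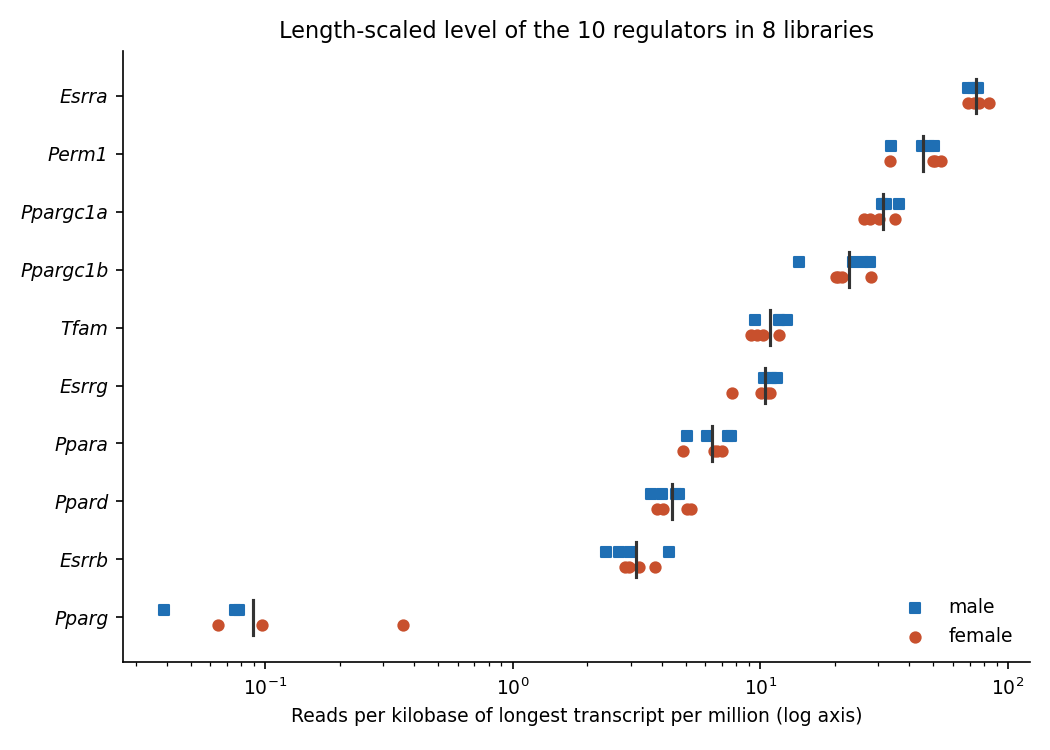
Length-scaled level (RPKM, per kilobase of the longest transcript, log axis) of the 10 regulators. Squares are the 4 male and circles the 4 female libraries, and a vertical line marks the mean of 8. Esrra lies highest at a mean of 74.1, Pparg lies lowest, and its 2 libraries with no count are not drawn.

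Within families, 1 receptor made up most of the ERR signal. Esrra accounted for 84.5% ± 1.93 (SD, n = 8) of the summed ERR level per length, with a range of 81.7% to 88.4%, Esrrg for 12.0% ± 1.70 and Esrrb for 3.59% ± 0.724. In the PPAR family Ppara held 58.8% ± 5.37, Ppard 40.5% ± 5.33 and Pparg 0.783% ± 0.948. In the female of litter 4 Ppara held 48.1% and Ppard 51.9%, and this was the only library in which Ppard was above Ppara. By the union of exons or the median transcript length, Ppara was above Ppard in all 8. Of the PGC-1 pair, Ppargc1a held 58.1% ± 5.69 and was above Ppargc1b in all 8 libraries. The share of Ppargc1a ran from 51.6% in the female of litter 1 to 69.0% in the male of litter 4. By the union of exons the mean shares were 78.8% for Esrra, 71.6% for Ppara and 59.7% for Ppargc1a, and by the median transcript length they were 93.5%, 60.6% and 74.6%.

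Whether the sexes differ at this age is the question set by taking 1 pup of each sex from every litter. None of the 9 tested genes differed between male and female hearts past an adjusted p of 0.05 (edgeR quasi-likelihood test, Benjamini-Hochberg over all tested genes), against 6 of 13771 genes, or 0.0436%, in the whole table. None reached an unadjusted p of 0.05 either, which 306 genes (2.22%) did, and DESeq2 called 0 of the 9 as well. Without both libraries of litter 3 the count was 0 of 9 again. Adjusted p-values were 0.99961 for each of the 9. The estimates, as male minus female log2 differences, ran from -0.11 (SE 0.13) for Ppard to 0.17 (SE 0.11) for both Esrrg and Tfam. Ppargc1a stood at 0.14 (SE 0.10), and Ppargc1b, the least precise, at 0.02 (SE 0.19). Without the female of litter 4 the difference was 0.07 for Esrrg, 0.08 for Ppargc1a and -0.03 for Ppard. Leaving out 1 library gave 0.11 to 0.26 for Tfam, lowest without the female and highest without the male of litter 3. It moved Ppargc1a to 0.22 and Ppard to -0.19 without the female of litter 3.

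With the litter as a block, so that each male was set against the sister of the same litter, the genes past the threshold numbered 29 in the whole table (0.211%) and still 0 among the 9. Ppargc1a, Esrrg and Tfam were each higher in the male in 4 of 4 litters. Their blocked differences were 0.14 (SE 0.05) for Ppargc1a, 0.18 (SE 0.07) for Esrrg and 0.17 (SE 0.06) for Tfam. Their adjusted p-values in edgeR's test were 0.371, 0.365 and 0.339, so none passed. At an unadjusted p of 0.05 these 3 were the members below it, while 1592 genes (11.6%) of the table were.

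Whether litters differ was asked next. In the test over the 4 litters with sex as a term, 5 of 9 genes passed an adjusted p of 0.05 where 4427 of 13771 genes, or 32.1%, did so in the whole table. These were Perm1 (adjusted p = 0.000691, edgeR quasi-likelihood test), Ppara (0.00507), Tfam (0.0205), Ppargc1b (0.0267) and Ppargc1a (0.0303). Esrrg (adjusted p = 0.0671), Ppard (0.170), Esrra (0.197) and Esrrb (0.356) did not pass in edgeR. Both coactivators, Perm1, Tfam and 1 PPAR thus passed, and no ERR gene did. Only the calls of Perm1 and Ppara held without any 1 library, and each rested on 1 litter: Perm1 was lost without both pups of litter 3 (adjusted p = 0.892) and Ppara without both of litter 4 (0.237). Ppargc1b was lost in DESeq2 (adjusted p = 0.219) and without the male, the female or both pups of litter 1 (0.0720, 0.0912 and 0.126). Ppargc1a and Tfam were lost with no sex term (0.105 and 0.0927), without the male or the female of litter 1 and without the male of litter 3, and Ppargc1a also without the female of litter 3 (0.239). Tfam was lost without both pups of litter 1 (0.133) as well. In turn Esrrg passed with library totals (0.0175), with no filter beyond 1 count (0.0139) and with the litter 3 male (0.0467) or the litter 4 male (0.0187) left out, and Esrrb passed without the female of litter 1 (0.0164), all in edgeR. The log2 range between the highest and the lowest litter had a median of 0.41 over the 9 genes and of 0.37 over all genes tested. Litter, dam and handling cannot be told apart here, and in bulk RNA fewer cells of a type and less RNA per cell cannot be told apart.

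Without both libraries of litter 3, 2 of the 9 genes passed, Ppargc1b and Ppara, where 13.7% of all genes did. The count of genes over the whole table fell to 1898. Over the settings that left no litter with 1 pup, 2 to 6 of the 9 genes passed, where 13.7% to 36.7% of all genes did. With no filter beyond 1 count all 10 genes were tested, and 6 passed where 23% of all genes did.

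**Figure D2:**
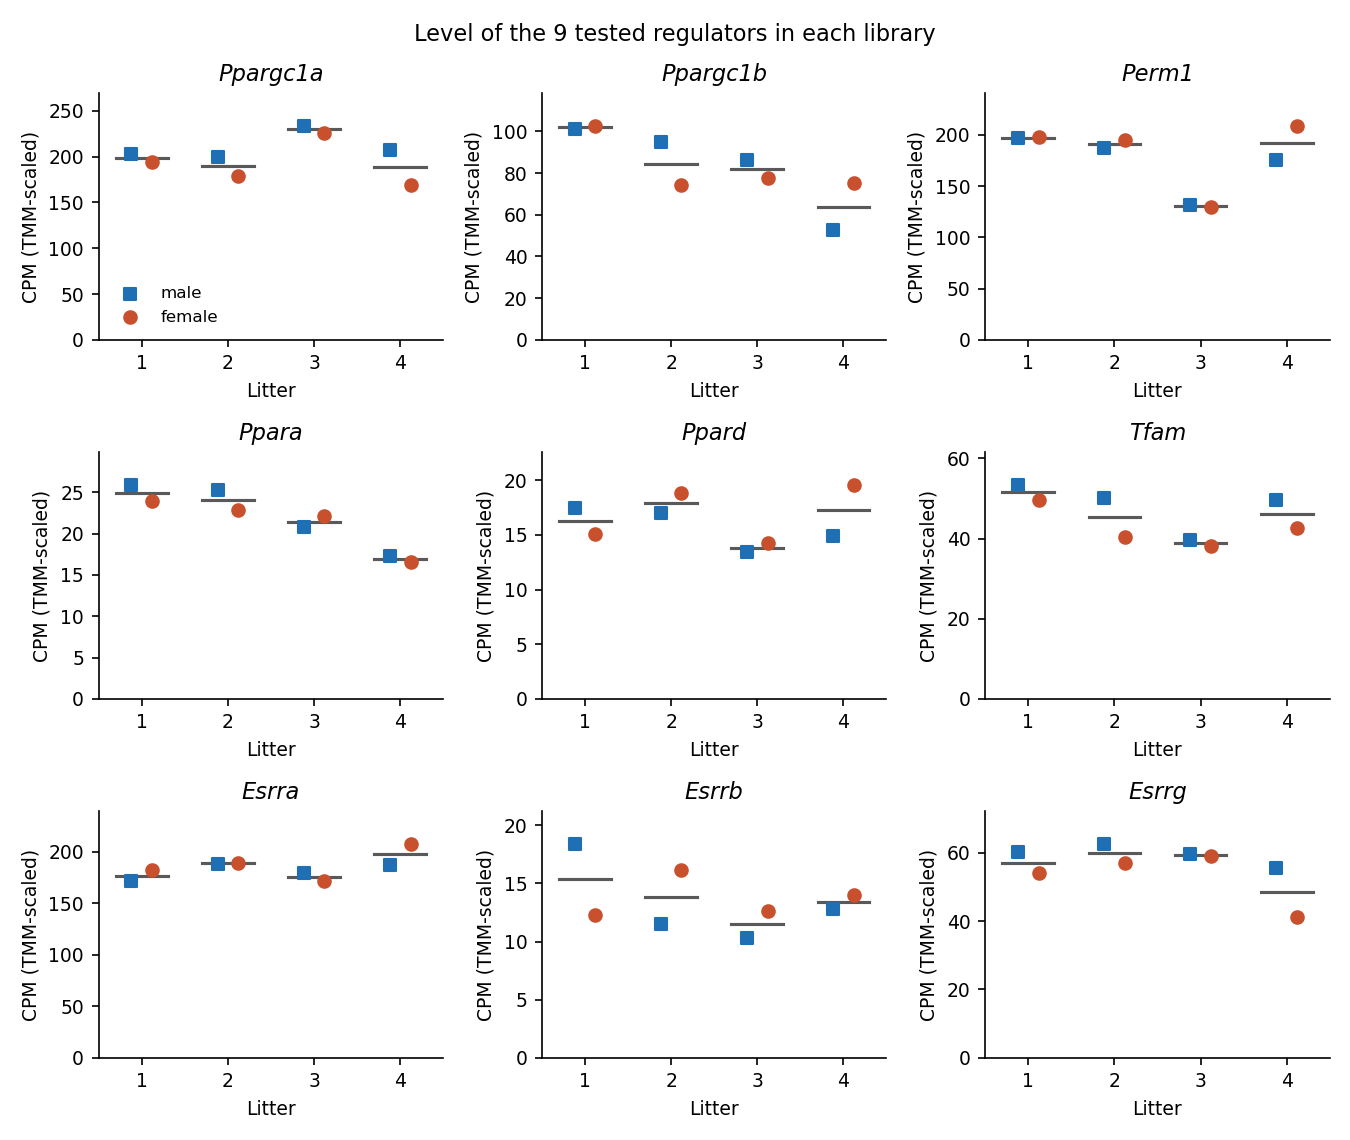
Level in CPM (linear axes from 0) of each of the 9 tested regulators by litter. Squares are males, circles females, and the grey line is the mean of the 2 pups of a litter. Perm1 lies lowest and Ppargc1a highest in both pups of litter 3, Ppara lies lowest in both pups of litter 4, and Esrra spans only 171 to 208 CPM.

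In litter 3 Ppargc1a was higher, and Perm1 and Tfam were lower. Of the 9 genes 1 was called higher, where 13.6% of all genes were, and 2 were called lower, where 14.8% were, so the counts were near those of the whole table. The median over the 9 genes was -0.09 in log2 against 0.00 over all genes tested. With library totals in place of TMM the calls over the whole table shifted from 1871 higher and 2032 lower to 2419 higher and 1698 lower, while the same 3 members were called in the same directions.

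Perm1 (chr4:156215868-156221307, + strand; the promoter with AAGGTCA is shown above) had 196 and 198 CPM in the male and the female of litter 1 and 187 and 195 CPM in those of litter 2. It had 131 and 130.0 CPM in litter 3 and 175 and 209 CPM in litter 4. Both pups of litter 3 lay well below the other 6, which did not go under 175 CPM. Litter 3 was lower than the mean of the other litters by a log2 difference of -0.56 (SE 0.07, adjusted p = 0.000109, edgeR quasi-likelihood test). The call held in every alternative that kept litter 3, each left-out library included.

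Ppargc1a (chr5:51454250-51567726, - strand) had 203 and 194 CPM in the male and the female of litter 1, 199.8 and 179 CPM in litter 2, 234 and 226 CPM in litter 3 and 207 and 169 CPM in litter 4. The 2 pups of litter 3 were above the other 6, by a small margin over the male of litter 4. The log2 difference of litter 3 from the others was 0.26 (SE 0.06, adjusted p = 0.00843, edgeR). It was 0.20 (adjusted p = 0.158, edgeR) without the female of litter 3, which has the lowest depth.

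Tfam (chr10:71225464-71238280, - strand) had 53.5 and 49.7 CPM in the male and the female of litter 1 and 50.03 and 40.5 CPM in litter 2. In litter 3 it had 39.6 and 38.1 CPM, and in litter 4 it had 49.6 and 42.6 CPM. Litter 3 was lowest, but the female of litter 2 came within 1 CPM of it. The log2 difference was -0.29 (SE 0.07, adjusted p = 0.0112, edgeR), and the call was lost without the male of litter 3 (-0.21, adjusted p = 0.193) or without both pups of litter 1 (-0.23, adjusted p = 0.0683).

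As a description of the same values within each library, Perm1 over Ppargc1a, on the scale per length, was 0.930 and 0.954 in the male and the female of litter 3 and 1.40 to 2.05 in the other 6 libraries. Tfam over Ppargc1a was 0.262 in both pups of litter 3 and 0.351 to 0.409 elsewhere. These ratios need no scaling between libraries, and restate the differences above rather than add to them.

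**Figure D3:**
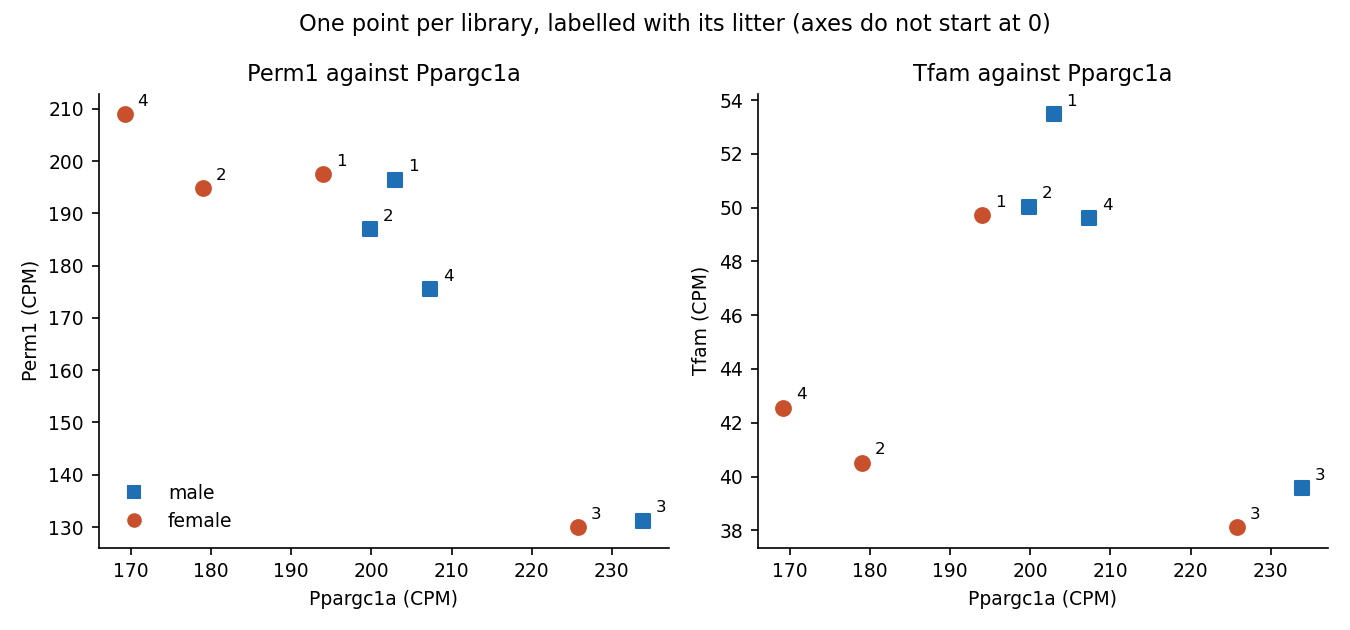
CPM of Perm1 (left) and of Tfam (right) against CPM of Ppargc1a, 1 point per library, squares for males and circles for females, each numbered by litter. Axes do not start at 0. Both libraries of litter 3 lie at the lower right, with Perm1 at 130.0 and 131 CPM and Ppargc1a at 226 and 234 CPM.

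Litter 3 also stood apart in markers that are not of this pathway. Over all genes tested, 13.6% were called higher and 14.8% lower in that litter. The 12 cardiomyocyte markers summed to 70504 to 72027 CPM there and to 81603 to 93244 CPM in the other litters, with 7 of 12 called lower. The 9 fibroblast markers summed to 32.8 to 52.5 CPM against 109 to 245 CPM (7 of 9 lower) and the 7 mural markers to 417 to 444 CPM against 877 to 1125 CPM (5 of 7 lower). The 10 immediate-early and stress genes summed to 1251 to 1345 CPM against 311 to 589 CPM, with 8 called higher and 1 lower. Endothelial markers were at 20.0 and 21.0 CPM in litter 3 and spanned 18.6 to 167 CPM in the others, with 7 of 10 called lower. Erythroid markers were at 532 CPM in the male and 185 CPM in the female of litter 3 and at 98.6 to 247 CPM in the others. Of these 7 markers 6 were tested, and 2 were called higher. Epicardial markers were at 2.26 and 2.48 CPM against 2.52 to 5.78 CPM. Of these 6 markers 5 were tested, and 2 were called lower. Of 9 macrophage markers, 6 had under 10 counts in each library, and of these Cd163 was at 0 in every library. The part of these shifts in the levels of Ppargc1a, Perm1 and Tfam was not tested.

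Ppard (chr17:28232700-28301474, + strand), the PPAR with the broadest tissue range, was at 13.4 and 14.2 CPM in the male and the female of litter 3 and at 14.9 to 19.6 CPM in the other 6 libraries. The ranges did not overlap, but the log2 difference of -0.31 (SE 0.12) did not pass (adjusted p = 0.0664, edgeR). Esrrb (chr12:86361117-86521628, + strand), best known from stem cells and the inner ear, had a log2 difference of -0.32 (SE 0.17, adjusted p = 0.194, edgeR) in litter 3. Both were called lower there with no filter beyond 1 count and without the female of litter 1, and Ppard also without the male of litter 4 or both pups of litter 1. Ppard and Esrrb had 207 to 467 and 184 to 459 counts per library, which is among the thinnest support of the 9.

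Litter 4 was lower in Ppara, Ppargc1b and Esrrg. These 3 of 9 genes were called lower, where 5.8% of all genes were, and 0 were called higher, where 4.71% were. Perm1 was called higher in litter 4 without both pups of litter 1 or of litter 2. With library totals in place of TMM the split over the whole table went from 648 higher and 799 lower to 262 higher and 1501 lower, and Ppargc1a was then called lower as well. In the male of litter 4, mitochondrial genes took 18.5% of all counts, against 13.4% to 15.2% in the other libraries, and the part of this in the result was not tested. With the mitochondrial genes left out of the fit, the same 3 members were called lower.

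Ppara (chr15:85734983-85802819, + strand), the main fatty acid receptor of the heart, had 25.9 and 23.9 CPM in the male and the female of litter 1 and 25.3 and 22.8 CPM in litter 2. It had 20.8 and 22.1 CPM in litter 3 and 17.3 and 16.6 CPM in litter 4. The 2 pups of litter 4 were below all others and close to each other. The log2 difference of litter 4 was -0.47 (SE 0.08, adjusted p = 0.00723, edgeR). It was -0.46 (adjusted p = 0.0671) without the male of litter 4 and -0.47 (adjusted p = 0.0625) without the female of litter 4, so the size held while the call did not.

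Ppargc1b (- strand of chromosome 18), the closest relative of Ppargc1a, had 101 and 103 CPM in the male and the female of litter 1 and 94.8 and 74.1 CPM in litter 2. It had 86.2 and 77.9 CPM in litter 3 and 52.6 and 75.3 CPM in litter 4. It was the most variable of the 9, with a CV of 20.1% over the 8 libraries, and the male of litter 4 lay apart from that pup's sister. The log2 difference of litter 4 was -0.47 (SE 0.13, adjusted p = 0.0349, edgeR), and it was -0.16 (adjusted p = 0.427) without that male and -0.84 (adjusted p = 0.0108) without the female of litter 4. DESeq2 did not call it (adjusted p = 0.147), and edgeR did not with no sex term (0.0515) or without the male (0.0545), the female (0.0631) or both pups (0.101) of litter 1. A microRNA gene, Mir378a, lies in an intron of Ppargc1b and had 0 to 8 counts per library in this table.

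Esrrg (chr1:187608791-188214885, + strand), the ERR of tissues with high energy demand, had 60.1 and 54.1 CPM in the male and the female of litter 1 and 62.6 and 56.9 CPM in litter 2. It had 59.5 and 58.9 CPM in litter 3 and 55.5 and 41.2 CPM in litter 4. Only the female of litter 4 stood away from the rest. The log2 difference of litter 4 was -0.29 (SE 0.08, adjusted p = 0.0414, edgeR) and -0.13 (adjusted p = 0.452) without that female. It was -0.46 (adjusted p = 0.0379) without the male of litter 4. The call was also lost with all libraries thinned to the depth of the shallowest (adjusted p = 0.0522), with no sex term (0.129), and without either pup of litter 1, either pup of litter 2 or the female of litter 3, with the size between -0.30 and -0.26. Without both pups of litter 1, or both of litter 2, Esrrg was not called either.

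Litter 1 had 4 of 9 genes called higher, where 7.86% of all genes were, and 0 called lower, where 5.41% were. The log2 differences were 0.42 (SE 0.12) for Ppargc1b, 0.28 (SE 0.08) for Ppara, 0.26 (SE 0.07) for Tfam and 0.22 (SE 0.06) for Perm1. Their adjusted p-values in edgeR were 0.0357, 0.0356, 0.0290 and 0.0359. Ppargc1b was the only one of the 4 whose litter 1 pups, at 101 and 103 CPM, lay above all other libraries. All 4 calls were lost without the male or the female of litter 1, without the female of litter 2 and with no sex term, and DESeq2 kept that of Perm1 alone. Each was also lost without 1 or more other libraries, those of Ppargc1b and Perm1 without the female of litter 3, those of Ppara and Tfam without the male of litter 3, that of Perm1 without the male of litter 2 and that of Ppara without the female of litter 4. The difference of Perm1 was 0.04 (adjusted p = 0.759, edgeR) without litter 3, whose low level is part of the mean it was set against. Tfam was at 0.18 (adjusted p = 0.161) without litter 3, and Ppara was at 0.14 (adjusted p = 0.313) without litter 4. The 4 contrasts share libraries in this way and are not independent. In litter 2, 0 of 9 genes were called by edgeR and 0 by DESeq2, where 3.3% of all genes were higher and 0.879% were lower. At an unadjusted p of 0.05 in edgeR, Ppara (0.0208) and Perm1 (0.0238) were the 2 of 9 below it, near the 17.9% of all genes. Both were called higher in litter 2 without both pups of litter 1, and Perm1 also without those of litter 4.

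**Figure D4:**
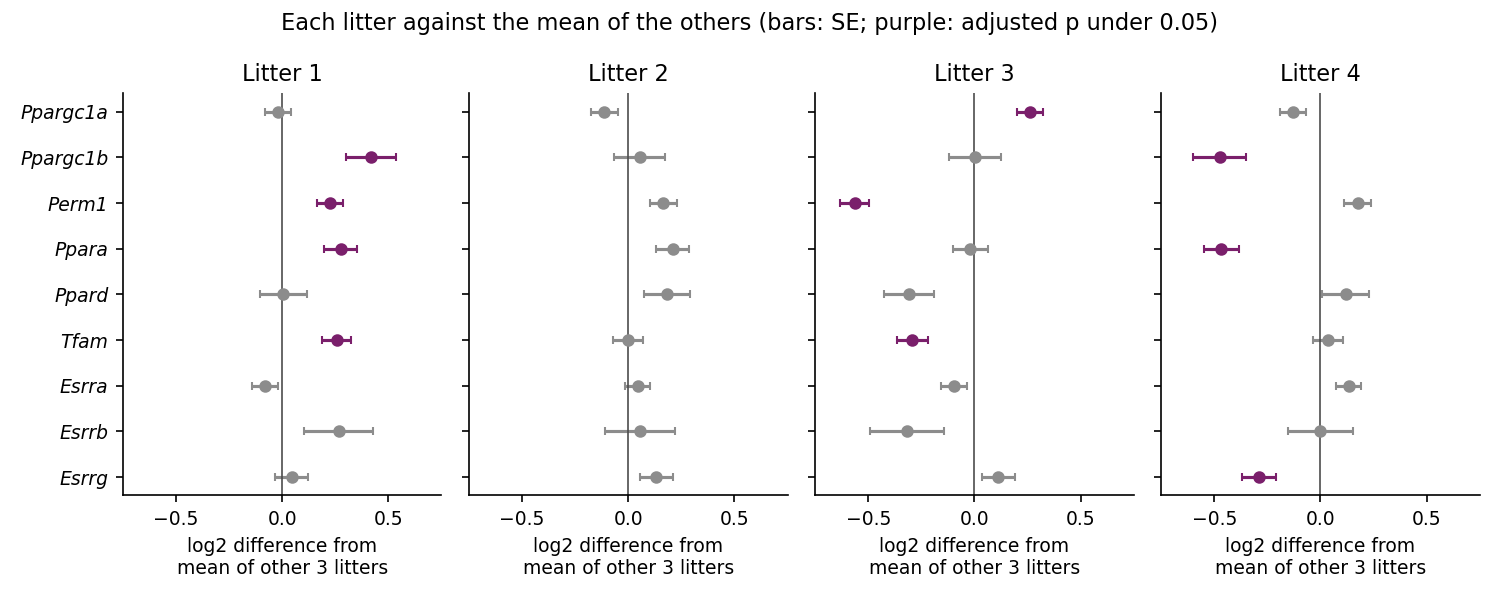
Log2 difference of each litter from the mean of the other 3, 1 panel per litter, for the 9 tested regulators. Points are estimates, bars their SE, and purple marks an adjusted p under 0.05. Litter 3 shows Ppargc1a at 0.26 to the right of 0 and Perm1 at -0.56 to the left, and litter 4 shows Ppargc1b, Ppara and Esrrg to the left.

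Esrra (chr19:6910977-6921813, - strand), a main partner of PGC-1α in the heart, had the smallest variation of the 9 and, per length of the longest transcript, the highest level of the 10. It had 172 and 182 CPM in the male and the female of litter 1 and 188 and 189 CPM in litter 2. It had 179 and 171 CPM in litter 3 and 187 and 208 CPM in litter 4. No litter stood apart from the others. Its CV over libraries was 6.33%, lower than that of all but 7.84% of the genes tested, while the median CV was 13.7% over the 9 members and 13.3% over all genes. It shares 73 exonic bases with Trmt112 on the opposite strand, which had 140 to 268 counts per library against 2492 to 4950 for Esrra.

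How much of each gene's variation went with litter differed widely, as shares of the sum of squares of log2 CPM. Litter took 94.4% for Ppara and 93.5% for Perm1, and 65.4% to 70.5% for Ppargc1a, Tfam, Ppargc1b and Esrra. It took 57.4% for Ppard, 54.2% for Esrrg and 32.0% for Esrrb, against a median of 70.4% over all genes tested. Sex took 27.2% for Esrrg and 23.7% each for Ppargc1a and Tfam, against a median of 5.88%. It took 7.91% for Ppard and 7.15% for Esrra, and 0.0239% to 2.58% for Ppargc1b, Ppara, Perm1 and Esrrb. Litter has 3 degrees of freedom and sex has 1, so litter shares and sex shares are not on 1 scale.

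The partners of these regulators, 22 receptors, coactivators, corepressors and modifying enzymes, were all tested, and 8 of the 22 varied by litter, where 32.1% of all genes did. In litter 3, 6 were called higher and 1 lower with a list median of 0.10 (log2), against 13.6% and 14.8% of all genes. In litter 4, 0 were called higher and 5 lower with a median of -0.17, against 4.71% and 5.8%. With library totals in place of TMM, 15 of the 22 varied by litter, where 34.3% of all genes did. Ncoa2, a coactivator of nuclear receptors, had a log2 difference of 0.39 (SE 0.06) in litter 3 and -0.33 (SE 0.06) in litter 4. Ep300, a histone acetyltransferase that works with PGC-1α, had 0.31 (SE 0.07) and -0.38 (SE 0.07). Prkaa2, the catalytic AMPK subunit of heart and muscle, had 0.28 (SE 0.06) and -0.34 (SE 0.06). All of these differences passed in edgeR. Of the RXR partners, named after their values were seen, Rxra was at 76.1 and 79.5 CPM in litter 3 and at 55.4 to 70.4 CPM elsewhere (log2 0.30, SE 0.06, adjusted p = 0.00406, edgeR). Rxrg was at 2.00 CPM in both pups of litter 3 and at 3.13 to 6.54 CPM elsewhere (log2 -1.23, SE 0.23, adjusted p = 0.00256, edgeR).

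In litter 3 more of the listed PPAR targets were called higher than lower. Every call among the listed ERR targets in that litter was lower. No gene stood on both lists, and targets that both receptor families share were not set apart. Of 34 PPAR targets of fatty acid handling, 18 varied by litter, where 32.1% of all genes did, and in litter 3, 12 were called higher and 4 lower, with a list median of 0.08. Of 24 ERR targets of oxidative metabolism, 13 varied by litter, beside the same 32.1%, and in litter 3, 0 were called higher and 11 lower, with a median of -0.16. The whole table had 13.6% higher and 14.8% lower in that litter. In litter 1 the splits ran the other way, with 3 PPAR targets higher and 7 lower (median -0.06) and 7 ERR targets higher and 0 lower (median 0.13), against 7.86% and 5.41% of all genes. In litter 4, 5 PPAR targets were higher and 2 lower (median 0.06), against 4.71% and 5.8% of all genes. Of the ERR targets 0 were higher and 1 lower there (median 0.05). The litter contrasts share libraries. Ppara itself, at a log2 difference of -0.02 (SE 0.08), and Esrra, at -0.09 (SE 0.06), did not pass in litter 3. Without both libraries of litter 3, 8 of the PPAR targets and 3 of the ERR targets varied by litter, where 13.7% of all genes did. No gene of the lists passed between the sexes, with or without the block.

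Acot1, an acyl-CoA thioesterase, had 175 and 149 CPM in the male and the female of litter 3 and 73.5 to 115 CPM in the other 6 libraries. Its log2 difference was 0.86 (SE 0.09, adjusted p = 3.14e-05, edgeR). Ucp2, a carrier of the inner mitochondrial membrane, had -0.72 (SE 0.08) in litter 1, 0.24 (SE 0.08) in litter 3 and 0.55 (SE 0.08) in litter 4, and all 3 passed. Pdk4, which shuts pyruvate out of oxidation and was named after its values were seen, had 511 and 555 CPM in litter 3 and 262 to 382 CPM elsewhere. The 4 that were lower in litter 3 were Fabp4, Vldlr, Lpl and Fabp3, while Slc27a1, a fatty acid transport protein, was among the 12 that were higher (log2 0.42, SE 0.06). Fabp4, also a gene of endothelial cells and fat, had 42.1 CPM in the female of litter 2, the library highest in endothelial markers.

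Among the ERR targets, Cycs (cytochrome c) had a log2 difference of 0.47 (SE 0.06) in litter 1 and -0.37 (SE 0.07) in litter 3. Got1, the cytosolic aspartate aminotransferase, had 0.25 (SE 0.05) and -0.37 (SE 0.06) in the same litters. Ckmt2, the creatine kinase of muscle mitochondria, had 0.45 (SE 0.06) in litter 1 and -0.57 (SE 0.07) in litter 4. All 6 differences passed in edgeR. The 11 that were lower in litter 3 include the citric acid cycle genes Ogdh, Idh3a, Mdh2 and Cs.

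**Figure D5:**
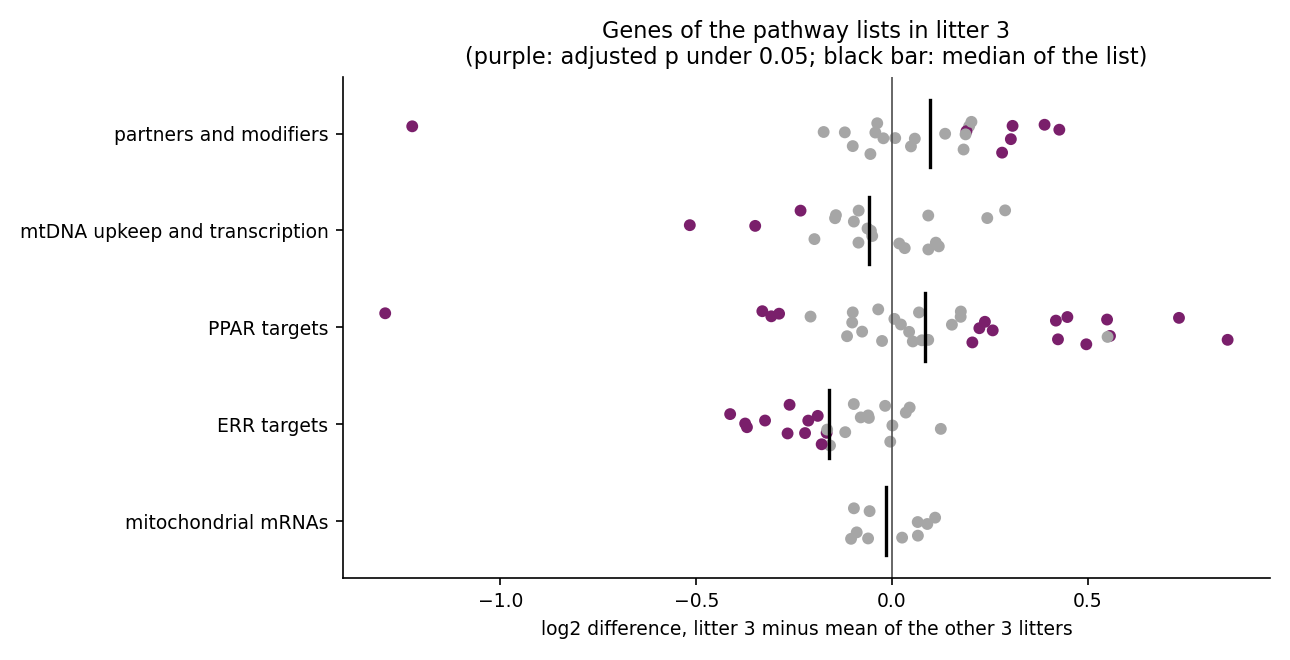
Log2 difference of litter 3 from the mean of the other 3 litters for each tested gene of 5 pathway lists, 1 row per list. Purple marks an adjusted p under 0.05, and the black bar is the list median. The ERR targets have 11 purple points, all to the left of 0, and the PPAR targets have 12 to the right and 4 to the left.

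Of the 20 nuclear genes for upkeep and transcription of mitochondrial DNA, where Tfam works, 2 varied by litter, a smaller share than the 32.1% of all genes. Lrpprc and Slirp, which form a complex that stabilises mitochondrial mRNAs, were at 0.45 (SE 0.05) and 0.41 (SE 0.07) in litter 1 and at -0.23 (SE 0.05) and -0.52 (SE 0.08) in litter 3. All 4 passed in edgeR. In litter 4 Lrpprc was also lower, at -0.21 (SE 0.05, adjusted p = 0.0290, edgeR), while Slirp was at 0.21 (SE 0.07) and did not pass. In litter 3 the list had 0 genes higher and 3 of 20 lower, with a median of -0.06, and the share lower was near the 14.8% of all genes. Of the 13 mRNAs that mitochondrial DNA encodes, 10 were tested and 3 varied by litter, near the 32.1% of all genes. All 3 were higher in litter 4, where 4.71% of all genes were. They were mt-Co1 (log2 0.37, SE 0.07), mt-Cytb (0.35, SE 0.07) and mt-Nd4 (0.30, SE 0.08). The male of litter 4, the library with 18.5% mitochondrial counts, stood highest. It had 76752 CPM of mt-Co1 against 60643 CPM in the female and 49850 to 55816 CPM in the other litters. None of the 10 passed in litter 3, the litter in which Tfam was lower. Of the 10, mt-Co3 (12.4 to 26.5 CPM), mt-Atp6 (12.7 to 22.1 CPM), mt-Nd6 (41.6 to 84.4 CPM) and mt-Co2 (149 to 255 CPM) lay far below mt-Co1. Those not tested were mt-Atp8, mt-Nd3 and mt-Nd4l. How completely the counts hold the reads of each mitochondrial mRNA was not tested.

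For each of the 5 genes that varied by litter, the 3 genes whose log2 CPM followed it most closely were listed by Pearson's r over the 8 libraries, which share litters and scaling. Perm1 was followed by Fam19a3 (r = 0.997), Ctnna1 (0.993) and Ip6k3 (0.991). Ctnna1 had 651 and 653 CPM in litter 3 and 803 to 896 CPM elsewhere. Ppargc1a was followed by Xrcc4 (0.986), Lysmd3 (0.978) and 3110043O21Rik (0.977). Ppara was followed by Zfc3h1 (0.977), Gm26782 (0.977) and Cdc42bpa (0.975). Tfam was followed by Eif5 (0.988), Slc35d1 (0.986) and Ugp2 (0.983). Ppargc1b was followed by RP24-163M14.1 (0.947), Napg (0.944) and Gm7785 (0.939). None of these 15 was a gene of the 5 pathway lists.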

How the data were processed

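Values are whole read counts, which the authors deposited unnormalized, by gene symbol, for 8 libraries. Reads were aligned with STAR 2.7.3a to mm10, per the submitters' processing notes. The counting program, its annotation and strand setting are not given in the sources used here, so antisense reads cannot be told apart. The labels name polyA RNA but a stranded total RNA kit.

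Computed here, in R 4.3.3 with edgeR 4.0.16: filterByExpr by sex left 13771 genes, and TMM scaling and quasi-likelihood tests followed, with Benjamini-Hochberg adjustment over all tested genes and a threshold of 0.05. Sex was tested without a block, and litter with sex as a term (3 residual degrees of freedom). Litter is in the labels, so the numbers pair samples; male and female deviations of a litter correlated at 0.367 to 0.696. No 2 libraries agreed within sampling noise. Lengths and positions are from GENCODE M21 (GRCm38, the build mm10). No 100-base stretch of the longest transcript of any of the 10 genes occurs in a transcript of another gene. Their other transcripts were not searched. DESeq2 1.42.0 and other settings were alternatives.

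Members and lists were chosen with earlier results of these data known. Beyond the members, the text names the 3 genes of each list with the smallest litter p-values and the 3 most alike genes of each member. Some genes that this rule takes are not reported here. Fits were tested on simulated data.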

Additional observations from a re-analysis of the deposited data

Results flagged for a closer look

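Ppargc1b in the female of litter 1, at 102.8 CPM, lay apart from the other 3 females, which had 74.1 to 77.9 CPM. The gap to the nearest female exceeded Dixon's 95% critical value for 4 samples (gap over range 0.867). The male of the same litter had 101 CPM. In all, 26 groups of 4 libraries were examined, 1 was apart, and chance would give 1.3.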

How the results depend on the processing

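Depth (184 counts or more per library for each tested member) and 2 pups per litter limit these results, and leaving out 1 library leaves a litter with 1 pup, assumed to vary like the others. With the replicate block the genes past the threshold between the sexes rose from 6 to 29. Leaving out replicates gave 1898 to 4586 genes in the litter test (4427 with all), 359 to 2906 in litter 1 (1827), 153 to 1407 in litter 2 (575), 1704 to 4177 in litter 3 (3903) and 322 to 1984 in litter 4 (1447). The lowest were without both pups of litter 3, the male of litter 1, the female of litter 2, the female of litter 3 and the male of litter 4. Litter 2 had 1249 genes with no filter beyond 1 count, 345 with a mean of at least 50 counts and 365 with no sex term, and litter 4 had 834 with no sex term. The causes were not tested.

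Of the pathway lists, the partners had 15 genes with library totals (8 with TMM). Left-out replicates gave 1 to 3 genes of mitochondrial DNA upkeep, 8 to 19 PPAR targets, 3 to 15 ERR targets and 1 to 4 mitochondrial mRNAs. In the same fits, each without both pups of a litter, 13.7% to 33.4% of all genes passed. The length-scaled rank was kept by 6 genes with the union of exons and by 4 with the median transcript length. The median litter share of variance over the 9 members was 38.9% to 69.9%, lowest without litter 3. Male minus female log2 differences near 0 changed sign without 1 replicate or litter: Ppargc1b (-0.10 to 0.18, and -0.0031 with the replicate block), Ppara (-0.038 to 0.16), Esrra (-0.10 to 0.0060), Esrrb (-0.31 to 0.086) and Perm1 (-0.22 to 0.027). The block changed no call of a member.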
